A study of Mus musculus with 2 samples.

Results

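The mitogen-activated protein (MAP) kinase phosphatases are the dual-specificity phosphatases (DUSPs) that switch off the MAP kinases ERK, JNK and p38 by removing phosphate from both the threonine and the tyrosine of the activation loop. The genes described are the 10 members Dusp1, Dusp2, Dusp4, Dusp5, Dusp6, Dusp7, Dusp8, Dusp9, Dusp10 and Dusp16, out of 19935 genes that the arrays' annotation names by a probe set of their own. All 10 were measured. They were selected on family membership with earlier results of these data known. Where a gene had several probe sets, the one that stands for it was chosen by the highest mean of both arrays. All values of the members are therefore given as a description.

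RNA came from Ba/F3 cells, a mouse pro-B-like line that needs the cytokine interleukin-3 (IL-3) to live, which here carried BCR-ABL, the fusion kinase of chronic myeloid leukaemia that replaces that need. Both samples were labelled as live cells, from medium with 10% serum, and were treated per the protocol with the ABL inhibitor imatinib (5 µM, 6 h). They differed in whether the medium held IL-3, under which the submitters described the cells as resistant, or lacked it, under which they described them as sensitive and dying. Each condition had 1 mouse Gene 1.0 ST array, so there was no replicate, no test and no p-value, and every difference below compares 2 arrays. The form of BCR-ABL, the number of clones and the way live cells were obtained were not stated in the labels.

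The assignment to conditions follows the sample titles. The sample titled as with IL-3 has a description saying without IL-3, and the wording of the other sample's source name leaves room for a reading without imatinib. Of the genes that IL-3 is known to induce through STAT5, Pim1 (1.68-fold) and Pim2 (1.80-fold) were higher in the array titled with IL-3 and Osm was 2.31-fold lower there. Cish, Socs2 and Socs3 differed by 0.08, 0.21 and 0.24 on the log2 scale, IL-3 array minus the other. Published work on these cells describes Dusp1 as induced by growth factor, whereas the titles place the higher Dusp1 value in the array without IL-3. Were the 2 titles exchanged, every sign below would turn.

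Each value is the authors' log value of a probe set, taken as log2, relative to a baseline of that probe set which is not given. A value of 0 is therefore the baseline and not absence of RNA, levels cannot be compared between genes, and whether a member was detected cannot be read. Presence of B-lineage or other cell types could not be checked as a level for the same reason. As differences, IL-3 array minus the other, the 8 measured of 9 B-lineage markers ran from -0.35 (Cd79a) to 0.12 (Igll1). The 9 mast cell and basophil markers ran from -2.46 (Fcer1a) to 0.19 (median -0.21), with 3 at least 2-fold lower and 3 above 0. The 9 granulocyte markers ran from -2.87 (Ngp) to 0.38 (median -0.07), with 3 at least 2-fold lower and 3 above 0. Of all genes, 0.657% were at least 2-fold lower. The 6 macrophage markers ran from -0.79 to 0.24. The 6 mast cell and granulocyte markers at least 2-fold lower lay on the same side as Dusp1 below. Their part in its difference was not tested. In bulk RNA, fewer cells of a type and less RNA per cell cannot be told apart.

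DUSPs of this family fall into 3 groups by where they act and on what. DUSP1, DUSP2, DUSP4 and DUSP5 are nuclear enzymes whose genes are induced by the MAP kinase signal they then shut off; DUSP6, DUSP7 and DUSP9 are cytoplasmic and prefer ERK; DUSP8, DUSP10 and DUSP16 prefer JNK and p38. DUSP1 acts on p38 and JNK as well as ERK, and its messenger RNA is short-lived through AU-rich elements that ZFP36 binds. In haematopoietic cells, IL-3 and BCR-ABL both drive the RAS to ERK route, of which DUSP4, DUSP5 and DUSP6 transcripts are well-known outputs.

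The sequence upstream of a member's start was read from RefSeq (GRCm38.p6), where 8 of the 10 members had an entry; Dusp4 and Dusp9 were the others. The next lines show the 250 bases before the start, 5′ to 3′ on the gene's strand, with each TGACG (on either strand), the core of the cyclic AMP response element (CRE), in capitals. Dusp1 (chr17:26508473-26508722, minus strand) is shown as the member with the largest difference, Dusp8 (chr7:142095285-142095534, minus strand) as the other member with a full CRE, and Dusp6 (chr10:99262981-99263230, plus strand) and Dusp7 (chr9:106368382-106368631, plus strand) as members on the opposite side from Dusp1.

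Dusp1: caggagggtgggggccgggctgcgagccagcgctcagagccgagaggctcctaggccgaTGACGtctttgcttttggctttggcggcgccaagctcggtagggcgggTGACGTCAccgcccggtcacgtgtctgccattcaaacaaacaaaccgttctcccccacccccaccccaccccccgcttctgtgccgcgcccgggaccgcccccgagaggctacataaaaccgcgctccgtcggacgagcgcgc

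Dusp8: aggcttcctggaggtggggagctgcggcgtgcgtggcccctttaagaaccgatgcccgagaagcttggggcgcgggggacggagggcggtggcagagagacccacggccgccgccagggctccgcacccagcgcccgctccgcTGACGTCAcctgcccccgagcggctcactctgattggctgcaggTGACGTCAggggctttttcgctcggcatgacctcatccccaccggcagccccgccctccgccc

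Dusp6: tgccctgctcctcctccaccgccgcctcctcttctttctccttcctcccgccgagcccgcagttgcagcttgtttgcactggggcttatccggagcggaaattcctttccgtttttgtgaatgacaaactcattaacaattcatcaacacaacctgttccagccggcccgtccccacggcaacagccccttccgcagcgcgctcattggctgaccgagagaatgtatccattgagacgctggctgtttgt

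Dusp7: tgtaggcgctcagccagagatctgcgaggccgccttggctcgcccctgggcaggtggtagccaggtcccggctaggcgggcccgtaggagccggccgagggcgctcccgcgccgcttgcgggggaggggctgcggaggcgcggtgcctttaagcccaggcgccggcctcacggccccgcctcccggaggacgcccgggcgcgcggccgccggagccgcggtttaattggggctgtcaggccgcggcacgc

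The full CRE, TGACGTCA, stood once in Dusp1, 143 to 136 bases before the start, and at 2 places in Dusp8, 107 to 100 and 63 to 56 bases before it. It was in 2 of the 8 members with an entry and in 1.62% of 27025 promoters of the same length. The core TGACG, counted also inside the full element, was in 4 of 8 members (Dusp1, Dusp5, Dusp8 and Dusp16) and in 17.9% of promoters. Dusp16, not shown above, held it 70 to 66 bases before the start and lay on the opposite side from Dusp1, as did Dusp6 and Dusp7, which lacked it. Dusp5, which held the core, and Dusp2, which lacked it, both lay at -0.07, on the side of Dusp1. A part of the core in these differences was not tested. The CArG box, which serum response factor binds, was found in Dusp5 only among the 8, at 82 to 73 and 72 to 63 bases before the start, and in 1.40% of promoters. The E-box CACGTG was in Dusp1 and Dusp2 (6.05% of promoters), and the SP1 motif GGGCGG in 6 of 8 (32.9% of promoters).

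Searched on both strands, the AP-1 motif TGAGTCA (4.43% of promoters), the STAT motif TTCNNNGAA (7.18%), the FOXO motif GTAAACA (3.09%), the ETS motif CCGGAAG (7.05%), the EGR1 motif GCGTGGGCG (0.54%) and the NF-kB motif (7.01%) were in none of the 8 windows. All 8 windows were richer in CpG than the median promoter, which held 6 CpG in 250 bases. Dusp7 held 34, Dusp1 28, Dusp16 27, Dusp8 25, Dusp5 21, Dusp2 19, Dusp10 17 and Dusp6 16. The shares of promoters given above are over all promoters and not over those equally rich in CpG. The CRE, its core, the E-box and the SP1 motif each contain CG, so for them that background is unlike the members. A match is a run of letters and not a shown binding site.

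Dusp1 was the 1 member of 10 past 2-fold on the side lower with IL-3, a side on which 0.657% of all genes passed the same threshold. On the side higher with IL-3 the count of members was 0, beside 0.441% of all genes. With the threshold at 1.5-fold, Dusp1 remained the 1 member on the lower side (2.71% of all genes) and Dusp4 was the 1 member on the higher side (3.52% of all genes). The differences of the 10 members had a median of 0.07 on the log2 scale, beside 0.04 over all genes, and 6 of the 10 were above 0, as were 59.8% of all genes. The median of the family therefore lay close to that of all genes, while its single members ran from -2.05 to 0.68.

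**Figure D1:**
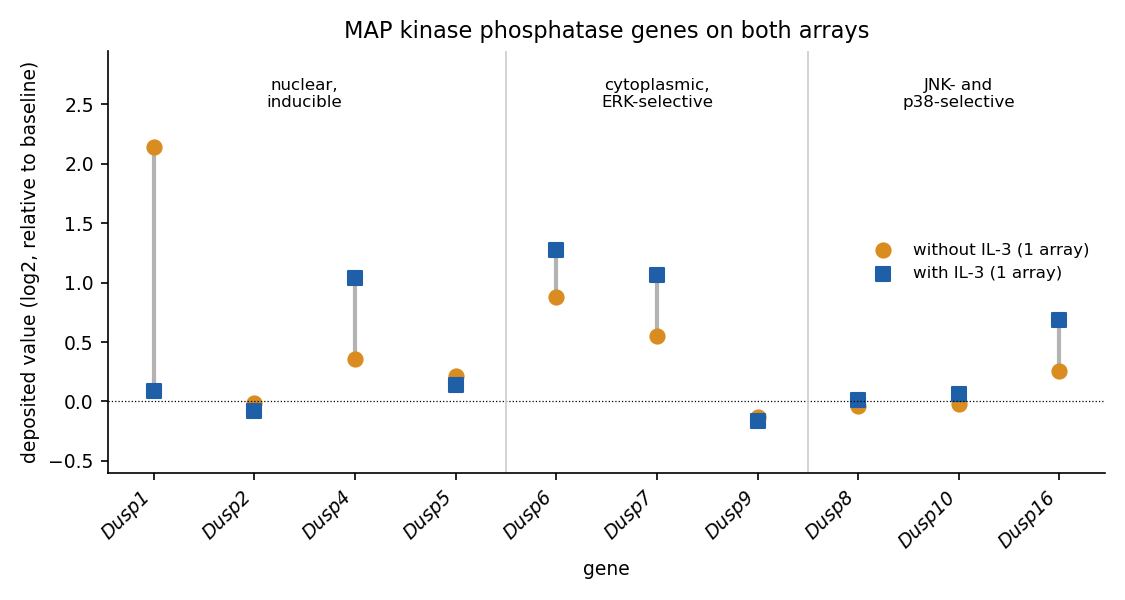
Deposited values (log2, relative to the unstated baseline of each probe set) of the 10 genes on the array with IL-3 (squares) and the array without IL-3 (circles), joined by a bar whose length is the difference. Dusp1 stood at 2.14 without IL-3 and 0.09 with it, Dusp4, Dusp6, Dusp7 and Dusp16 were higher with IL-3, and both points nearly coincide for the other 5 genes.

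As a yardstick for a single difference, probe sets naming 1 gene were compared with each other in the 998 genes that had several, and their pooled SD was 0.14. This covers measurement within these 2 arrays and no variation between cultures. The 5 members with a difference larger than this SD, in either direction, were Dusp1, Dusp4, Dusp6, Dusp7 and Dusp16. The 5 within it were Dusp2, Dusp5, Dusp8, Dusp9 and Dusp10. Of all 19935 genes, 8790 had a difference larger than this SD, so passing it was common and does not by itself set these members apart.

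Dusp1, which encodes MKP-1, the founding nuclear phosphatase of the family, stood at 0.09 with IL-3 and at 2.14 without it. The difference of -2.05 is 4.14-fold lower with IL-3. It was the 13th lowest difference of 19935 genes and also the 13th by size in either direction. Relative to baseline, the value without IL-3 was among the highest of that array, where only Fosb and Chmp1b lay above Dusp1. With IL-3, Dusp1 lay close to its baseline, and 34.6% of genes had a higher value relative to theirs.

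Dusp4, which encodes the nuclear phosphatase MKP-2, belongs to the same nuclear, inducible group as Dusp1 and lay on the other side. Its value was 1.03 with IL-3 and 0.35 without, a difference of 0.68 (1.60-fold higher with IL-3), and 2.24% of all genes had a larger positive difference. Dusp2 (PAC-1), a nuclear enzyme best known from activated lymphocytes and myeloid cells, had -0.08 with IL-3 and -0.02 without, a difference of -0.07. Dusp5, a nuclear phosphatase selective for ERK, had 0.14 with IL-3 and 0.21 without, a difference of -0.07. The nuclear, inducible group thus held the highest and the lowest difference of the family and 2 members near 0.

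Dusp6, which encodes MKP-3, the cytoplasmic ERK phosphatase used widely as a readout of ERK activity, had a value of 1.27 with IL-3, the highest of the members relative to baseline, and of 0.88 without. The difference was 0.40 (1.32-fold higher with IL-3). Relative to its own baseline it was high on both arrays, since 1.11% of genes had a higher value with IL-3 and 3.10% without. Dusp7 (MKP-X), its near relative, had 1.06 with IL-3 and 0.55 without, a difference of 0.51 (1.43-fold higher). Dusp9 (MKP-4), the third cytoplasmic member, had -0.16 with IL-3 and -0.13 without, a difference of -0.03.

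Dusp16 (MKP-7), which acts on JNK and p38, had 0.68 with IL-3 and 0.26 without, a difference of 0.43 (1.34-fold higher with IL-3). Dusp10 (MKP-5), which shares that preference, had 0.07 with IL-3 and -0.02 without, a difference of 0.09. Dusp8 was the only member with 2 probe sets. The one with the higher mean had 0.02 with IL-3 and -0.04 without (difference 0.06), and the other had -0.23 and -0.38 (difference 0.15). Both Dusp8 probe sets differed in the same direction. The full CRE that Dusp8 shares with Dusp1 stood beside a difference near 0 in Dusp8 and of -2.05 in Dusp1. Whether the element has a part in either was not tested.

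In order of the difference, Dusp4 (0.68) was followed by Dusp7 (0.51), Dusp16 (0.43), Dusp6 (0.40), Dusp10 (0.09), Dusp8 (0.06), Dusp9 (-0.03), Dusp2 (-0.07), Dusp5 (-0.07) and Dusp1 (-2.05). No step between neighbours from Dusp7 to Dusp6 or from Dusp10 to Dusp5 exceeded the probe set SD of 0.14. The steps from Dusp4 to Dusp7, from Dusp6 to Dusp10 and from Dusp5 to Dusp1 did. This SD is that of a single difference, whereas a step holds the error of 2, so it is a lenient yardstick for steps. The step from Dusp4 to Dusp7 was the smallest of these and is not read as a break in the order.

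The members that differed beyond the probe set SD were those with the highest mean of both arrays. Dusp1, Dusp4, Dusp6, Dusp7 and Dusp16 lay in the highest 25% of genes by that mean, where differences scattered more widely (robust SD, from the median absolute deviation, 0.42) than over all genes (0.17). Of the genes in that highest 25%, 12.8% were higher with IL-3 by at least 1.5-fold and 1.67% were lower by at least 2-fold. Read against those genes, 8.39% had a larger positive difference than Dusp4, 16.8% than Dusp7 and 24.4% than Dusp6. For Dusp1 and Dusp16 no such reading is given. Each lay above the lower bound of that highest 25% (a mean of 0.296) on a single array. Dusp1 did so without IL-3 and Dusp16 with it (0.68, against 0.26 without). Their differences themselves thus helped to place them there.

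**Figure D2:**
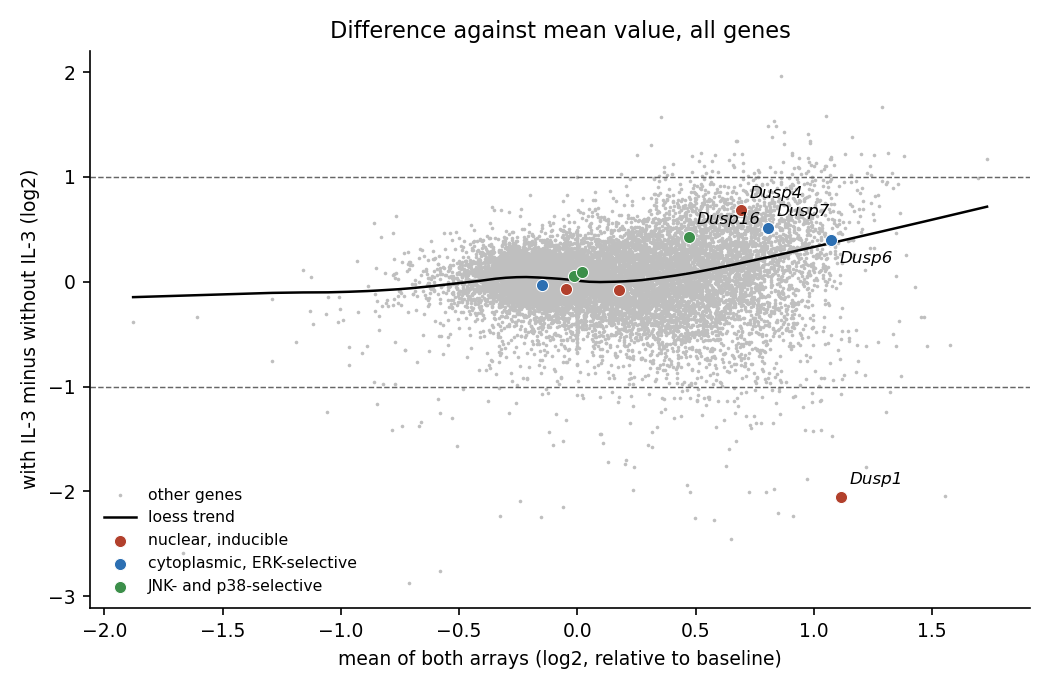
Difference with IL-3 minus without IL-3 (vertical, log2) against the mean of both arrays (horizontal, log2 relative to baseline) for 19935 genes in grey, with the 10 members coloured by group, the loess trend as a black line and 2-fold as dashed lines. Dusp6 sits on the trend, Dusp4, Dusp7 and Dusp16 above it, and Dusp1 at -2.44 relative to it.

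In the highest 25% of genes by mean the median difference was 0.11, beside 0.02 to 0.04 in the other 25% bands. The loess trend stood at 0.37 at the mean of Dusp6, 0.23 at that of Dusp7, 0.18 at that of Dusp4 and 0.08 at that of Dusp16. The mean of both arrays is relative to each baseline and is not a level, so the trend cannot be read as one of signal intensity. What gives rise to it was not tested, and its subtraction is an alternative scaling and not a correction. With this trend subtracted, Dusp6 moved from 0.40 to 0.03 and Dusp7 from 0.51 to 0.28. Dusp4 went from 0.68 to 0.50 and Dusp16 from 0.43 to 0.35, of which only the shift of Dusp4 exceeded the probe set SD. Dusp1 moved to -2.44, or 5.43-fold lower. After that subtraction 1 member was at least 2-fold lower, beside 1.03% of all genes, and 6 of 10 were above 0, beside 51.1%. The median of the cytoplasmic ERK group, which is the value of Dusp6, accordingly went from 0.40 to 0.03.

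**Figure D3:**
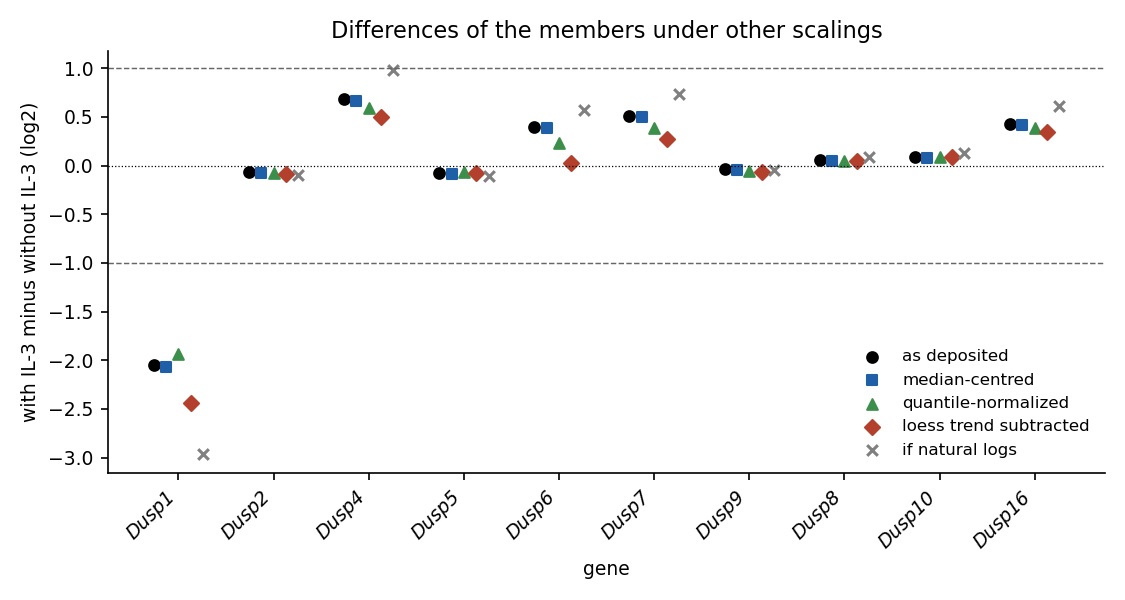
Difference with IL-3 minus without IL-3 (log2) of each member as deposited and under other scalings of the 2 arrays, or if the deposited values were natural logs, with 2-fold as dashed lines. All 10 members kept their sign in each of these settings, of which natural logs could not turn a sign. Dusp1 alone lay beyond 2-fold, and Dusp6 came to 0.03 with the loess trend subtracted.

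The genes most like Dusp1 were those whose pair of values lay nearest to its own, measured as the straight-line distance over the 2 arrays. They were Papss2, which makes the sulfate donor PAPS (0.03 with IL-3 and 1.91 without), Trim12c (0.34 and 2.11), the haematopoietic microRNA gene Mir142 (-0.20 and 2.03), Chmp1b, of the ESCRT-III membrane-scission machinery (0.39 and 2.24), and the embryonic globin gene Hbb-y (-0.25 and 1.95). The nearest lay 0.24 away, and 11 genes lay within 0.5 of Dusp1. For Dusp4 the nearest were Cmss1, the proteasome subunit gene Psmb7, the snoRNP and spliceosome gene Snu13, the cytochrome c gene Cycs and Foxred1, all within 0.03, with differences of 0.65 to 0.70. Within 0.5 of Dusp4 lay 2137 genes. The pair of values of Dusp1 was thus shared by few genes and that of Dusp4 by many; 2 arrays cannot show a shared pattern beyond this.

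The remaining genes of the dual-specificity phosphatase class, mostly small atypical enzymes that lack the MAP kinase docking domain, lay on both sides of 0. All 16 on the list were measured, 8 above 0 and 8 below, with a median of 0.01 and 0 members at 1.5-fold in either direction. The highest was Dusp14 (0.56 with IL-3 and 0.04 without, a difference of 0.53) and the lowest Dusp11, an RNA phosphatase (0.36 and 0.66, a difference of -0.30). Dusp3 (VHR), which can act on ERK and JNK, had 0.59 with IL-3 and 0.20 without, a difference of 0.39. As deposited, the range of the atypical members, -0.30 to 0.53, did not include Dusp1 or Dusp4. With the loess trend subtracted, Dusp14 (0.504) and Dusp4 (0.502) were nearly equal, so Dusp4 was not set apart.

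Phosphatases of other families that act on MAP kinases were also within 2-fold. Of 8 measured, 5 were above 0, with a median of 0.07. Ppm1b, a serine/threonine phosphatase, was the lowest (0.58 with IL-3 and 1.23 without, 1.56-fold lower with IL-3), and Ppp2ca, a catalytic subunit of PP2A, the highest (difference 0.40, or 0.09 with the loess trend subtracted).

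Among the MAP kinases, the substrates of the family, 12 of the 14 listed had a probe set of their own. The median was 0.04, with 8 of 12 above 0, beside 59.8% of all genes. The p38 genes Mapk11 (1.03 with IL-3 and 0.15 without, 1.85-fold higher) and Mapk12 (0.75 and 0.03, 1.64-fold higher) were the 2 members at least 1.5-fold higher. Past that threshold on the same side lay 3.52% of all genes. The JNK gene Mapk8 was the lowest at -0.19. Of the MAP kinase kinases, 6 of 7 were measured, from Map2k6 at -0.14 to Map2k1, which encodes the ERK kinase MEK1, at 0.43, with a median of 0.03, and 0 reached 1.5-fold.

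Farther upstream, the RAS and RAF module had 17 of 20 genes measured and a median of -0.10, from the adaptor gene Gab1 (-0.60) to the adaptor gene Grb2 (0.46). The MAP3K genes above JNK and p38 had 15 of 15 measured and a median of -0.01, from Map3k12 (-0.61) to Map3k1 (0.52). Downstream, the MAPK-activated kinases had 8 of 11 measured and a median of -0.16, from Mapkapk3 (-0.61) to Mapkapk2 (0.08). None of the genes in these 3 lists reached 2-fold in either direction.

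Of the 15 genes for ERK output and feedback, 12 were above 0, beside 59.8% of all genes, with a median of 0.17. Within the probe set SD lay 4 of the 15, beside 11145 of all 19935 genes. Etv5, an ETS factor induced by ERK, had 1.55 with IL-3 and 0.06 without and was the 1 gene at least 2-fold higher, beside 0.441% of all genes. Spred2, an inhibitor of RAS to RAF signalling, was next (0.91), and the lowest was Phlda1 (-0.44).

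Immediate early transcription factor genes share with Dusp1 a fast and brief response to mitogens and stress. Of 20 measured, 15 were below 0, beside 40.1% of all genes, with a median of -0.11. Within the probe set SD lay 9 of the 20, beside 11145 of all 19935 genes. On the lower side 3 passed 2-fold, beside 0.657% of all genes. These were Fosb (0.53 with IL-3 and 2.57 without), Klf6 (0.34 and 1.81) and Fos (-0.05 and 0.98). Klf4 was the highest at 0.23. Egr1, a standard ERK-induced member of this class that is named after its value was seen, differed by -0.08.

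Of the 8 factors that set the decay of AU-rich messenger RNAs, Zfp36 was the 1 gene past 2-fold. It lay on the lower side, where 0.657% of all genes passed. Its value was -0.04 with IL-3 and 1.28 without, a difference of -1.32. Its relatives Zfp36l1 and Zfp36l2 differed by -0.31 and -0.24. The decay factor gene Khsrp was the highest at 0.50, and the list median was 0.02. The gene for the decay factor and the Dusp1 transcript it is known to bind were thus both higher in the array titled without IL-3. With the loess trend subtracted, 4 of the list medians above 0 turned below it, namely those of the atypical DUSPs (-0.02), the other phosphatases (-0.0059), the MAP kinase kinases (-0.10) and the decay factors (-0.11).

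**Figure D4:**
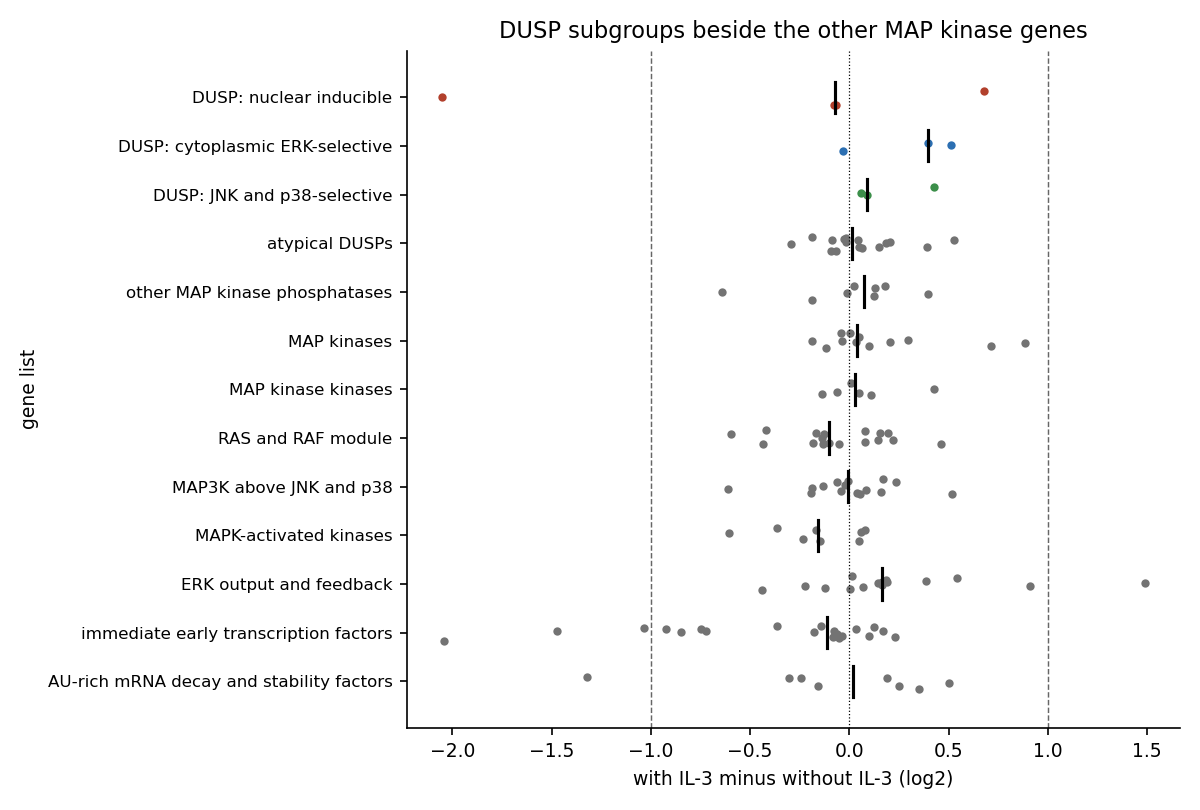
Differences with IL-3 minus without IL-3 (log2) of the 3 DUSP groups (coloured) and of 10 further lists of MAP kinase genes and early response genes (grey), 1 point per gene, with each list's median as a black bar and 2-fold as dashed lines. The list medians lie between -0.16 and 0.40, and the points past 2-fold are Dusp1, Fosb, Klf6, Fos and Zfp36 on the lower side and Etv5 on the higher side.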

How the data were processed

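The authors deposited log values, taken here as log2, from which a baseline had been subtracted for each probe set, as the values themselves show. Among 28815 probe sets, 1760 (6.11%) had equal and opposite values within 1e-05. Per the labels' protocols, sense-strand cDNA was made from total RNA with the Ambion WT Expression kit and hybridised to Affymetrix Gene 1.0 ST arrays. The summarisation, normalization, log base, direction and baseline arrays are steps not stated in the labels or the file. If the values are natural logs, the folds printed are too small. Array medians were -0.03 with IL-3 and -0.05 without.

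Probe sets with 1 gene symbol in the platform annotation (21780) were used, 1605 with several symbols and 5430 with none were not, and the probe set with the highest mean stood for each of 19935 genes. The 10 members were named by 11 probe sets. Differences were taken as the IL-3 array minus the other, and genes were counted at 2-fold with no filter. With 1 array per group no test was possible, and precision is limited by the number of arrays. The members, gene lists and motifs were chosen with earlier results of these data known. The genes named are all members, each list's highest and lowest gene and those past 2-fold, and the 5 genes nearest to Dusp1 and to Dusp4; others beside them were chosen after their values were seen. Alternatives were median centring, quantile normalization, a loess trend (span 0.3, over all probe sets) subtracted, other probe sets, natural logs, a 1.5-fold threshold and a filter at the array medians. The rescaling steps were run on simulated data with less scatter than these arrays. A pass mark was set only for unscaled values and for loess subtraction. Python 3.11.15, pandas 2.3.3 and statsmodels 0.14.6 were used.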

Additional observations from a re-analysis of the deposited data

How the results depend on the processing

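All 10 members kept the sign of their difference under the 6 other scalings, probe set rules and log base tried. Dusp1 was beyond 2-fold in each. The probe set rules could change only Dusp8, the only member with 2 probe sets. Natural logs enlarge every difference and cannot turn a sign. A sign could therefore turn for every member only under median centring, quantile normalization or loess subtraction. A value was taken as moved when it shifted by more than the probe set SD of 0.14. With the loess trend subtracted, Dusp1 moved to -2.44, Dusp4 to 0.50, Dusp6 to 0.028 and Dusp7 to 0.28, and 29 genes in all were at least 2-fold higher and 205 lower, against 88 and 131 as deposited; the share of higher among counted genes went from 40.2% to 12.4%, and to 27.8% after quantile normalization (62 higher, 161 lower). Quantile normalization moved Dusp6 to 0.23. If the values are natural logs, Dusp1 would be at -2.96, Dusp4 at 0.98, Dusp6 at 0.57, Dusp7 at 0.74 and Dusp16 at 0.62, with 419 genes higher and 375 lower. At 1.5-fold, 1 member was higher, and 701 genes were higher and 540 lower in all. The filter at the array medians left out Dusp9 and gave a median of 0.09 over the 9 members kept. No paired analysis was possible because each condition had 1 array. The loess trend was 0.39 at the mean of Dusp1 and 0.37 at that of Dusp6, whose difference as deposited was 0.40. No depth applies to these arrays, and without levels no limit of detection could be set.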

Other observations

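The p38 genes Mapk11 and Mapk12 are neighbours in the RefSeq gene order, and the genes around them were read for comparison, chosen after those values were seen. On the side of Mapk12, Hdac10 differed by 0.27 and Tubgcp6 by 0.37 with IL-3 minus without IL-3. On the side of Mapk11, Plxnb2 differed by -0.05, Dennd6b by 0.26 and Ppp6r2 by -0.06. Both p38 genes (0.88 and 0.71) thus had larger differences than any of these 5 neighbours.

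Around Dusp1, the 3 protein-coding genes on one side were Neurl1b (-0.01), Luc7l (0.42) and Fam234a (-0.41), and those on the other were Ergic1 (0.57), Atp6v0e (0.07) and Crebrf (-1.18). Crebrf, a regulator of the CREB3 family, had -0.36 with IL-3 and 0.83 without, and was the 1 of the 6 neighbours at least 2-fold lower with IL-3. The genes between Dusp1 and Crebrf lay on the other side of 0.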
